A study of Mus musculus with 6 samples.

Results

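The genes described here are the granzymes Gzma, Gzmb, Gzmk and Gzmm, the pore-forming protein gene Prf1, and 5 genes that package, activate or inhibit their products (Srgn, Ctsc, Cst7, Serpinb9 and Serpinb6b). They were taken by gene symbol, and all 10 were among the 23366 genes of the deposited count table. RNA was sequenced from regulatory T (Treg) cells, sorted as CD4+GFP+ cells from the liver (n = 3 libraries) and the spleen (n = 3 libraries) of 12-day-old Foxp3GFP knock-in mice. All libraries share that genotype, in which green fluorescent protein (GFP) reports Foxp3, the lineage factor of Treg cells. The study's title concerns Treg cells that accumulate in the neonatal liver, and liver against spleen is the comparison its labels give. The labels do not say whether a library came from 1 animal or a pool, so p-values speak only of the spread among the libraries. The sex-linked transcripts given below differed among the 3 libraries of each tissue, so those libraries were not repeats of 1 sample. How much of their spread is technical is not known.

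Cytotoxic lymphocytes store granzymes, which are serine proteases, in secretory granules on a scaffold of the proteoglycan serglycin (Srgn). Perforin (Prf1) forms pores in a target cell and lets granzymes into its cytosol. Granzymes are made as inactive precursors, from which cathepsin C (Ctsc) removes a dipeptide, and cystatin F (Cst7) inhibits cathepsin C. Serpinb9 inhibits granzyme B and protects the cell that makes it, and mouse Serpinb6b inhibits granzyme A. Treg cells can use granzyme B and perforin to kill other immune cells.

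Counts in genes were between 8437055 and 10951720 in the liver libraries and were 1199410, 11408960 and 11358446 in spleen 1, spleen 2 and spleen 3. Spleen 1 was thus the shallowest library, and it also stood apart on the first principal component (79.0, against 9.53 and 7.72 in the other spleen libraries and -29.1 to -34.8 in liver). The sorted cells carried their label: Foxp3, in counts scaled to library size (CPM), averaged 1266 ± 58.4 CPM in liver and, in spleen, 1159.5 ± 57.6 CPM, while Cd4 averaged 662 ± 28.5 against 649.6 ± 64.3 CPM (SD, n = 3 each). Cells were sorted on Cd4 and the Foxp3 reporter, so these levels do not show that other Treg genes match. By edgeR's quasi-likelihood test, 4 of 7 Treg markers did not pass, Foxp3 and Cd4 among them. Ctla4 was higher in liver (log2 fold change 0.89 ± 0.12 SE, edgeR adjusted p = 5.00e-05), as was Ikzf2 (0.35 ± 0.10, edgeR adjusted p = 0.0241). Il2ra was lower (-0.60 ± 0.09, edgeR adjusted p = 0.000171). Libraries also differed in sex-linked transcripts. Only Xist exceeded 10 CPM in liver 1 and spleen 1, only Ddx3y in liver 2 and spleen 2, and both in liver 3 and spleen 3, so each class held 1 library of each tissue.

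Transcripts of granzyme B, granzyme A, perforin and serglycin were higher in liver Treg cells, while those of cathepsin C, cystatin F and both serpins did not pass the test. Of the 10 genes, 9 passed the filter on low counts and Gzmk did not. By edgeR's quasi-likelihood test, with adjusted p under 0.05 as the threshold, 4 of 9 were higher in liver, 0 were lower and 5 did not pass. Over all 11716 genes tested, 16.2% were called, 9.28% as higher in liver and 6.90% as lower. All liver libraries lay above all spleen libraries for the same 4 genes, which held for 17.7% of tested genes, and all spleen libraries lay above all liver libraries for 1, Cst7, which held for 15.2%. The median log2 fold change of the 9 genes was 0.13, and that of all tested genes was -0.01. The 10 genes were chosen with earlier results of these data known, so these shares are a description. The 4 calls also stood without spleen 1. With every library thinned to the depth of spleen 1, 2 of the 7 genes that could be tested were called, and without spleen 2 the count was 3.

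**Figure D1:**
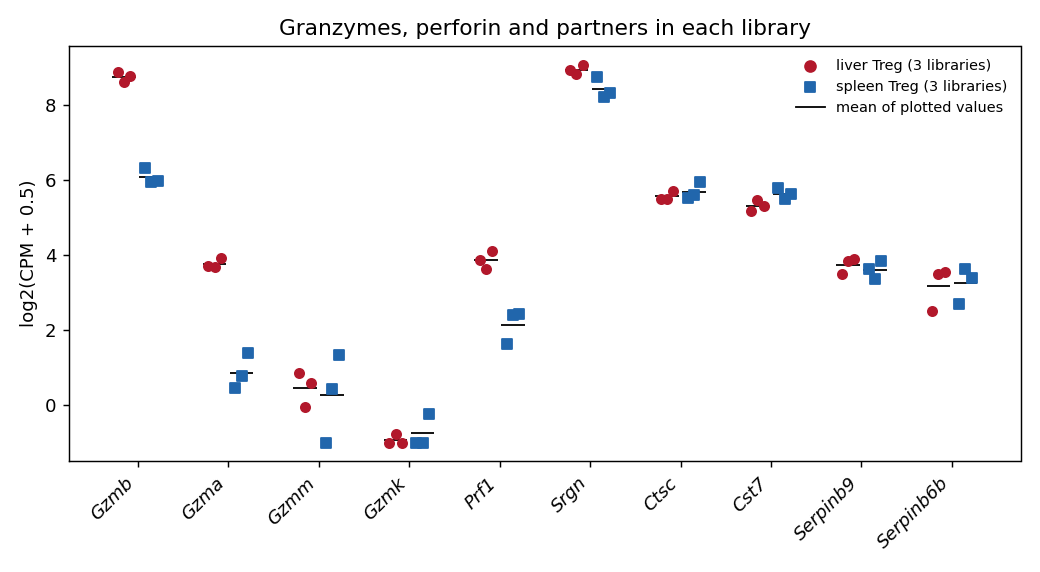
Level of each gene in each library as log2(CPM + 0.5), with liver libraries as red circles, spleen libraries as blue squares and a line at the mean of the plotted values. Gzmb, Gzma, Prf1 and Srgn are higher in every liver library than in any spleen library, while the libraries of both tissues overlap for Gzmm, Gzmk, Ctsc, Serpinb9 and Serpinb6b.

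Gzmb encodes granzyme B, which cleaves after aspartate and can activate caspases in a target cell. Its level was 472, 392 and 438 CPM in liver 1, 2 and 3, against 79.2, 61.1 and 62.5 CPM in spleen 1, 2 and 3. The lowest liver library was far above the highest spleen library. The fitted log2 fold change was 2.74 ± 0.12 (SE; 95% interval 2.49 to 2.98), a 6.67-fold difference (edgeR adjusted p = 1.72e-10). Within the classes of sex-linked transcripts, the log2 difference at a pseudocount of 0.5 CPM was 2.57 between the libraries with Xist alone, 2.67 between those with Ddx3y alone and 2.80 between those with both. In these bulk samples, more cells that express a gene and more transcript per cell cannot be told apart.

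Gzma encodes granzyme A, a protease that cleaves after basic residues. It was at 12.6, 12.5 and 14.7 CPM in liver and at 0.861, 1.20 and 2.14 CPM in spleen, so the groups did not overlap. The spleen 1 value rests on 1 count (exact Poisson 95% interval 0.0218 to 4.80 CPM), and those of spleen 2 and spleen 3 on 14 and 25 counts. Intervals of this kind cover counting error only. The log2 fold change was 3.04 ± 0.34 (SE; 95% interval 2.31 to 3.76; edgeR adjusted p = 6.69e-06), or 8.21-fold, and without spleen 1 it was 2.99. The log2 difference within the classes of sex-linked transcripts was 3.27, 2.93 and 2.53 for Xist alone, Ddx3y alone and both. At the depth of spleen 1 the gene did not pass the filter and was not tested.

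Prf1, the perforin gene, was at 14.1, 11.8 and 16.9 CPM in liver and at 2.58, 4.80 and 4.87 CPM in spleen. Every liver library was above every spleen library, and the spleen 1 value rests on 3 counts (exact Poisson 95% interval 0.532 to 7.55 CPM). The log2 fold change was 1.64 ± 0.28 (SE; 95% interval 1.05 to 2.22; edgeR adjusted p = 0.000439), or 3.11-fold, and within the classes it was 2.24, 1.22 and 1.70. With all libraries thinned to the depth of spleen 1, it was 1.23 and no longer passed (edgeR adjusted p = 0.0844).

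The promoters of these 3 genes are shown because they rose most and because the Gzmb promoter is a textbook case of factors that also act in activated T cells. Each window runs from 250 bases before to 50 bases after the annotated start, in the direction of transcription, from RefSeq on GRCm38.p6, a later build than the mm9 named for the counts. Capitals mark matches on either strand to the letters TGANTCA (an AP-1 site), TGACGT (the core of a cyclic AMP response element, CRE) or TGTGGT (a Runx site).
Gzmb, chr14:56262285-56262584, minus strand: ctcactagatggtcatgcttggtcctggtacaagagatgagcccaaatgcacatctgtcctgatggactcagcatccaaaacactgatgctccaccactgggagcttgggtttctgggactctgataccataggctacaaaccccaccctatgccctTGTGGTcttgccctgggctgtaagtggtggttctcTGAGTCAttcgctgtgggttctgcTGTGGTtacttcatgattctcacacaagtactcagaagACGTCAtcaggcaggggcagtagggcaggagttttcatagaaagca
Gzma, chr13:113100932-113101231, minus strand: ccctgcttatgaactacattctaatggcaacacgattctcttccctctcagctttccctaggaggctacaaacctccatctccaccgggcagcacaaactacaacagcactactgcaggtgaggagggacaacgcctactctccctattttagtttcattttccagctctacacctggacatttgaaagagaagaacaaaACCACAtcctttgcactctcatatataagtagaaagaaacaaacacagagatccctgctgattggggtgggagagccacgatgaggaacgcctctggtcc
Prf1, chr10:61297586-61297885, plus strand: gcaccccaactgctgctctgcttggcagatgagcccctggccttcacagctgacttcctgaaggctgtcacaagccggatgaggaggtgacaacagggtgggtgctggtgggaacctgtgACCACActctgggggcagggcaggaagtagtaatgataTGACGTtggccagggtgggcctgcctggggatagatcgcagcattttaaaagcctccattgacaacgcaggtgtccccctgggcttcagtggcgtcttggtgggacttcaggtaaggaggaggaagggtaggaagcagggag
The Gzmb window held 1 AP-1 match, 1 CRE core match and 2 Runx matches. They began at positions -58, 4, -93 and -34 from the start, read from the left end of each match. The Gzma window held 1 Runx match, at -50, and no match to the AP-1 or CRE letters. The Prf1 window held 1 CRE core match, at -92, and 1 Runx match, at -130. None of the matches overlapped another. Another motif searched, the T-box core GGTGTG, had no match in any of the 3 windows. Of all 32851 promoter windows of the same length, 7.81% held the AP-1 letters, 7.51% the CRE core, 16.8% the Runx letters and 19.0% the T-box core. Genes that did not pass held such letters too: Cst7 an AP-1 and a Runx match, and Serpinb9 a Runx match. Gzmm, with 2 windows, held a Runx match in 1 of them. Srgn also had 2 windows, of which 1 held a CRE core and a Runx match and the other held no match. Gzmk, Serpinb6b and Ctsc held no AP-1, CRE core or Runx match. A match describes the letters only, and no binding was measured.

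Granzymes K and M were close to the limit of detection. Gzmk, whose product cleaves after basic residues like granzyme A, had 0, 1 and 0 counts across liver libraries, against 0, 0 and 4 across spleen libraries. A count of 0 allows up to 0.361 CPM in liver 1 and up to 2.58 CPM in spleen 1, taking 3 counts as the floor. Gzmm, whose product prefers methionine or leucine, was at 1.32, 0.459 and 1.02 CPM in liver and at 0, 0.857 and 2.05 CPM in spleen. The groups overlapped, and the log2 fold change was -0.50 ± 0.68 (SE; 95% interval -1.94 to 0.94; edgeR adjusted p = 0.688), with its sign reversed, at 0.37, when spleen 3 was left out. No difference in either gene was detectable at this depth.

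Granzyme B was the main granzyme transcript in both tissues. Over all 10 granzyme genes read here, which add Gzmc to Gzmg and Gzmn to the 4 above, Gzmb took 95.9%, 95.8% and 95.5% of the counts in liver (of 4098, 4464 and 4948 counts). In spleen it took 95.8%, 92.4% and 89.1% (of 96, 772 and 820 counts). Spleen 2 and spleen 3 lay below the liver libraries and spleen 1 among them, with a Wilson 95% interval of 89.8% to 98.4% in spleen 1. Per length, the share of Gzmb was 94.1%, 94.0% and 93.6% in liver and 93.6%, 89.3% and 85.8% in spleen. Next per length were Gzma (3.59% to 4.50% in liver, 1.45% to 4.19% in spleen) and Gzmc (1.52% to 2.08% and 4.90% to 6.60%), a gene of the Gzmb cluster. The set of 10 was taken after the values were seen, and the shares were not tested. Reads without a unique alignment are not counted to a gene, so granzyme genes of similar sequence may be undercounted.

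Srgn encodes serglycin, the scaffold on which granzymes are stored. It was abundant in both tissues, at 489, 459.7 and 542 CPM in liver and at 432, 300.1 and 321 CPM in spleen. Liver libraries were all above spleen libraries, but spleen 1 lay close to the lowest liver library. The log2 fold change was 0.52 ± 0.12 (SE; 95% interval 0.26 to 0.78; edgeR adjusted p = 0.00612), or 1.44-fold. Without spleen 2 it was 0.42 and did not pass (edgeR adjusted p = 0.0673). Within the classes of sex-linked transcripts the log2 difference was 0.18, 0.61 and 0.75 for Xist alone, Ddx3y alone and both. Srgn is also strongly expressed by granulocytes, mast cells and macrophages. The granulocyte markers summed to 291 to 324 CPM in liver and 486 to 817 CPM in spleen, the macrophage markers to 74.7 to 83.6 and 124 to 189 CPM, and the mast cell and basophil markers to 2.78 to 4.33 and 7.44 to 8.91 CPM. The granulocyte marker Mmp9 was higher in liver (1.28 ± 0.22, edgeR adjusted p = 0.000474). The part of these cells in the Srgn difference was not tested.

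**Figure D2:**
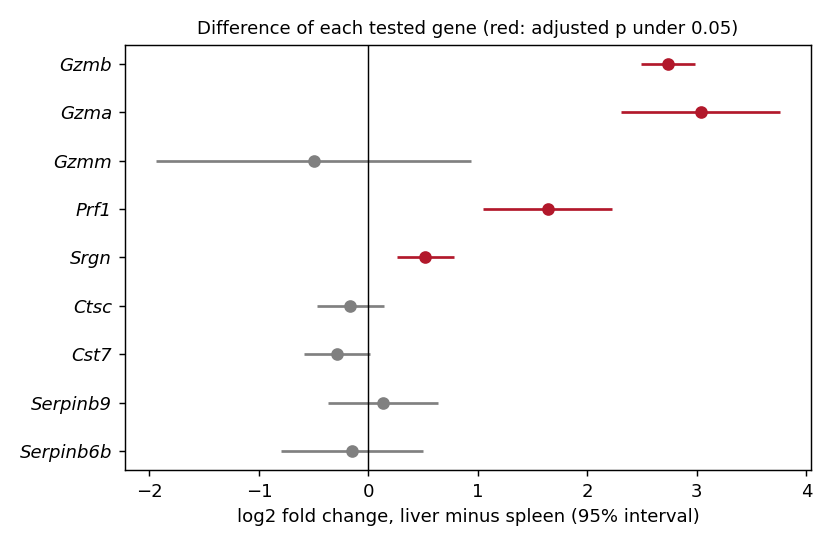
Log2 fold change of liver minus spleen for the 9 tested genes with its 95% interval, red where the adjusted p is under 0.05 and grey otherwise. The intervals of Gzmb, Gzma, Prf1 and Srgn lie above 0, and those of Gzmm, Ctsc, Cst7, Serpinb9 and Serpinb6b include 0.

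The activating protease and its inhibitor did not differ past the threshold. Ctsc, which encodes cathepsin C, was at 44.5, 44.8 and 52.0 CPM in liver and at 45.6, 48.1 and 61.5 CPM in spleen. The groups overlapped, and the log2 fold change was -0.17 ± 0.14 (SE; edgeR adjusted p = 0.490), with a 95% interval of -0.47 to 0.14. Cst7, which encodes cystatin F, was at 36.0, 43.7 and 39.6 CPM in liver and at 55.1, 44.6 and 49.4 CPM in spleen. Its libraries did not overlap, by a small margin between liver 2 and spleen 2, and its log2 fold change was -0.29 ± 0.14 (SE; 95% interval -0.59 to 0.01; edgeR adjusted p = 0.200). Both intervals leave out a change of the size seen for Gzmb, Gzma or Prf1.

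The serpins overlapped between tissues. Serpinb9, the inhibitor of granzyme B, was at 10.8, 13.8 and 14.4 CPM in liver and at 12.0, 9.85 and 13.8 CPM in spleen, with a log2 fold change of 0.13 ± 0.24 (SE; 95% interval -0.37 to 0.64; edgeR adjusted p = 0.768). Serpinb6b was at 5.17, 10.8 and 11.3 CPM in liver and at 6.02, 11.9 and 10.1 CPM in spleen, with a log2 fold change of -0.15 ± 0.31 (SE; 95% interval -0.80 to 0.50; edgeR adjusted p = 0.799). In both tissues the lowest Serpinb6b library was the one with Xist alone. In spleen that value, of spleen 1, rests on 7 counts (exact Poisson 95% interval 2.42 to 12.4 CPM). This interval includes the values of spleen 2 and spleen 3. Both serpins belong to a cluster of similar genes, and the table sets reads without a unique alignment aside in a row of their own, so their levels are uncertain. The sign of either fold change was reversed when spleen 2 was left out (-0.03 for Serpinb9 and 0.04 for Serpinb6b), and that of Serpinb6b also without liver 1 (0.12).

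Levels of different genes can be set beside each other only per length, here as CPM per kilobase (kb) of the exons that GENCODE M21 gives a gene. In liver, Gzmb had the highest level of the 10 genes at 302 ± 28.0 CPM per kb (SD, n = 3), followed by Srgn at 226 ± 18.9 CPM per kb, and their libraries did not overlap (273 to 329 and 209 to 247 CPM per kb). Cst7 followed at 40.3 ± 3.95, Gzma at 13.2 ± 1.25, Ctsc at 8.11 ± 0.725 and Prf1 at 5.53 ± 0.993 CPM per kb. Serpinb6b and Serpinb9 overlapped at 4.02 ± 1.51 and 3.72 ± 0.551 CPM per kb, and Gzmm and Gzmk were under 1 CPM per kb. In spleen, Srgn was highest at 159.8 ± 32.3 CPM per kb. Cst7 and Gzmb came next at 50.4 ± 5.34 and 47.1 ± 7.01 CPM per kb, and these libraries overlapped.

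Gzma stood lower in the order in spleen, at 1.39 ± 0.657 CPM per kb, close to Prf1 at 1.58 ± 0.504 and below both serpins (3.41 ± 0.572 and 4.13 ± 1.33). Among the 11051 tested genes with a length, Gzmb lay at percentile 99.1 of the level per kb in liver and 91.4 in spleen. Gzma lay at 64.9 and 17.1, Prf1 at 41.6 and 18.9, and Srgn at 98.6 and 98.1. Ctsc, at 51.4 and 54.5, and Cst7, at 89.1 and 92.0, kept a similar place in both tissues. No other annotated gene overlapped the exons of any of the 10 genes in GENCODE M21.

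Ratios of genes within a library do not depend on how libraries are scaled. The ratio of Gzmb to Srgn, both as CPM per kb, was 1.48, 1.30 and 1.24 in liver and 0.280, 0.311 and 0.298 in spleen. Per kb, Gzmb was thus above Srgn in every liver library and below it in every spleen library. In CPM, Gzmb was below Srgn in every library of both tissues. The order in liver therefore rests on the exon lengths used, 1.44 kb for Gzmb and 2.2 kb for Srgn. The ratio of Gzmb to Serpinb9 was 106, 69.4 and 73.7 in liver and 16.0, 15.1 and 11 in spleen, and that of Gzmb to Ctsc 42.9, 35.4 and 34.1 against 7.02, 5.14 and 4.11. The ratio of Gzmb to Cst7 was 9.02, 6.16 and 7.58 in liver and 0.987, 0.941 and 0.868 in spleen. Ctsc to Cst7, protease to inhibitor, overlapped at 0.210, 0.174 and 0.223 in liver and 0.141, 0.183 and 0.211 in spleen (log2 difference 0.19, exact two-sided permutation p = 0.600). For the 5 ratios with Gzmb the log2 difference was 2.17 to 3.01, and the exact two-sided permutation p was 0.1, the smallest that 3 against 3 libraries allow (0.12 adjusted over the 6 ratios). All 5 share the same Gzmb values.

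**Figure D3:**
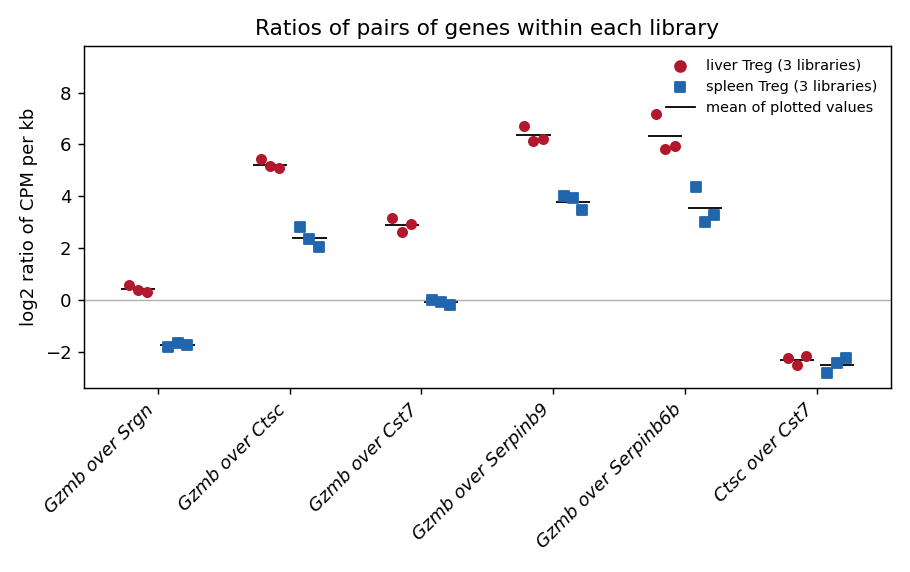
Log2 ratio of the levels per kb of pairs of genes within each library, with liver libraries as red circles, spleen libraries as blue squares and a line at the mean. The liver libraries lie above the spleen libraries for the 5 ratios with Gzmb on top, and the tissues overlap for Ctsc over Cst7.

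Other genes of the granule pathway were counted from lists by role. The test called 20 of 69 genes higher in liver and 8 lower, and 41 did not pass, with a median log2 fold change of 0.14, against 9.28% higher and 6.90% lower over all tested genes. Without spleen 3 the count higher in liver was 12, and at equal depth it was 12 of 65. Over all tested genes that count fell as well, from 1087 to 846 without spleen 3 and to 636 at equal depth. The lists were chosen with earlier results of these data known. Among 6 other granzyme genes, Gzmd, Gzme, Gzmg and Gzmn had 0 counts in every library and Gzmf at most 5. Reads without a unique alignment are not counted to a gene, so a count of 0 here or in the lists below need not mean absence. Gzmc was at 6.49, 3.94 and 4.91 CPM in liver and at 2.58, 2.57 and 2.99 CPM in spleen, with a log2 fold change of 0.88 ± 0.40 (SE) that did not pass (edgeR adjusted p = 0.158).

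Among 26 tested genes for granule sorting and release, liver was higher for 5 and lower for 2, and 19 did not pass. Nkg7, a granule membrane protein of cytotoxic cells, was at 62.0, 50.7 and 76.7 CPM in liver and at 29.3, 20.1 and 22.2 CPM in spleen (log2 fold change 1.5 ± 0.18 SE, edgeR adjusted p = 1.09e-05). Sytl3, a synaptotagmin-like protein that binds Rab27, was at 17.7, 14.3 and 15.3 CPM against 3.44, 2.14 and 4.27 CPM (2.28 ± 0.31, edgeR adjusted p = 3.92e-05). Both genes were higher in every liver library than in any spleen library, as was Stx11, a membrane fusion protein that cytotoxic cells need to release granules (log2 fold change 0.80 ± 0.13, edgeR adjusted p = 0.000240). The lysosomal membrane gene Lamp1 was lower in liver (-0.49 ± 0.09, edgeR adjusted p = 0.000901), as was Igf2r, a mannose 6-phosphate receptor that carries granzymes to granules (-0.51 ± 0.10, edgeR adjusted p = 0.00123). The other receptor of that kind, M6pr, was higher in liver, at 223, 213 and 244 CPM against 162, 179 and 182 CPM (0.37 ± 0.09, edgeR adjusted p = 0.0117). Rab27a (0.19 ± 0.10, edgeR adjusted p = 0.207) and Unc13d (-0.13 ± 0.09, edgeR adjusted p = 0.357), which dock and prime granules, did not pass.

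Among 14 tested cathepsin and cystatin genes, liver was higher for 4 and lower for 1, and 9 did not pass. Lgmn, the asparaginyl protease legumain, was at 54.2, 65.4 and 58.5 CPM in liver and at 18.1, 26 and 32.5 CPM in spleen (1.11 ± 0.16, edgeR adjusted p = 0.000107). Ctsf was higher (1.76 ± 0.42, edgeR adjusted p = 0.00672), a call lost without spleen 3 (1.36, adjusted p = 0.0518), while without spleen 2 the log2 fold change of Ctsf was 2.61. Ctsa was higher by less (0.33 ± 0.09, edgeR adjusted p = 0.0183), lost without liver 1, liver 2, spleen 2 or spleen 3. Ctse, an aspartic protease, was lower in liver (-0.72 ± 0.18, edgeR adjusted p = 0.00971), lost without spleen 2 (log2 fold change of Ctse -0.62, edgeR adjusted p = 0.0780). Cathepsin W, a protease of cytotoxic lymphocytes, averaged 51.7 ± 3.11 CPM for its gene Ctsw in liver against 52.8 ± 0.988 CPM in spleen (SD, n = 3 each; edgeR adjusted p = 0.917).

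Of 23 clade B and related serpin genes, 15 had 0 counts in every library and 4 could be tested, of which 2 were higher in liver. Serpina3g, an inhibitor of cathepsins, was at 35.2, 31.5 and 39.1 CPM in liver and at 7.75, 13.6 and 17.6 CPM in spleen (1.28 ± 0.20, edgeR adjusted p = 0.000232). Serpinb6a was called (0.52 ± 0.17, edgeR adjusted p = 0.0440) although its libraries overlapped, and the call held under 7 of 16 alternatives, being lost without any 1 of liver 1, liver 3, spleen 2 or spleen 3.

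Transcription factors that act on cytotoxic genes went both ways. Liver was higher for 9 of the 24 tested and lower for 5, and 10 did not pass. Prdm1, which encodes Blimp-1, was at 109, 109 and 104 CPM in liver and at 26.7, 24.2 and 29.9 CPM in spleen. Tbx21, which encodes T-bet, an activator of Gzmb and Prf1 in cytotoxic T cells, was at 30.5, 23.2 and 37.6 CPM against 7.75, 4.28 and 7.01 CPM (log2 fold change 2.38 ± 0.26 SE, edgeR adjusted p = 4.49e-06). Its relative Eomes, which shares that role, went the other way, at 0.361, 1.56 and 0.556 CPM in liver and at 10.3, 8.83 and 9.74 CPM in spleen (-3.46 ± 0.47, edgeR adjusted p = 4.41e-05, and -4.30 without liver 2). For each of these 3 genes, liver and spleen libraries were fully separate. Nfil3 was also higher in liver (1.25 ± 0.18, edgeR adjusted p = 6.49e-05), and Bcl6 (-1.29 ± 0.15, edgeR adjusted p = 9.30e-06) and Tcf7 (-0.57 ± 0.11, edgeR adjusted p = 0.00116), which repress effector genes, were lower.

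Granzymes and perforin are also made by natural killer (NK) cells, group 1 innate lymphoid cells (ILC1) and CD8 T cells, so markers of these cells were read in the same libraries. Of 14 NK and ILC1 markers, 6 could be tested: liver was higher for 2 and lower for 2, and 2 did not pass. The defining marker Ncr1, an activating receptor, was at 0.842, 2.02 and 1.39 CPM in liver (7, 22 and 15 counts) and had 0, 1 and 0 counts in spleen. It did not pass the filter on low counts, but under the 6 alternatives that tested it, it was higher in liver in 5 (adjusted p 0.00410 to 0.0528 over the 6, the highest without spleen 3). Klrb1c, which encodes the NK1.1 receptor, was at 3.49, 3.76 and 4.17 CPM in liver and at 0, 1.37 and 1.54 CPM in spleen (1.53 ± 0.50, edgeR adjusted p = 0.0475, lost when any library but spleen 1 was left out).

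Klrd1, which encodes CD94, was higher in liver as well (2.99 ± 0.68, edgeR adjusted p = 0.00467), from 19, 30 and 41 counts against 0, 2 and 7 in spleen. Its log2 fold change was 4.15 without spleen 3, and 2.49 without spleen 2, where the call was lost (edgeR adjusted p = 0.0588). Klrk1, which encodes NKG2D, was at 2.65, 3.30 and 2.5 CPM in liver against 0.861, 0.257 and 1.54 CPM in spleen and did not pass (1.64 ± 0.63, edgeR adjusted p = 0.0873). Of the markers too low to test, Klre1 had 6, 12 and 10 counts in liver and 0, 0 and 3 in spleen, Klra7 had 2, 3 and 4 against 0 in each spleen library, and Klra1 and Klra9 had at most 5 in any library. Klra3, Klra4 and Klra8 had 0 counts in every library.

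The 14 genes pool markers of NK cells and of ILC1, so counts and sums over them cannot tell these cells apart. The markers lower in liver were Cd160 (-1.78 ± 0.26, edgeR adjusted p = 0.000107) and Eomes. The 14 markers summed to 19.0 to 21.7 CPM in liver and 26.7 to 32.9 CPM in spleen, a direction that rests on these 2 genes. Without them, a sum taken after the values were seen, the other 12 came to 12.1, 14.8 and 14.9 CPM in liver and to 2.58, 3.60 and 5.38 CPM in spleen. Leaving out the 2 genes called lower favours a sum that is higher in liver, so the second sum is a description and not a test.

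The CD8 T cell markers Cd8a, at 3.73, 5.50 and 4.17 CPM in liver and 2.58, 2.57 and 4.87 CPM in spleen, and Cd8b1, at 5.29, 9.35 and 6.85 against 7.75, 6.86 and 8.38 CPM, overlapped. The 5 CD8 markers summed to 13.9 to 20.1 CPM in liver and 14.4 to 16.4 CPM in spleen, and 0 of the 3 tested passed by edgeR, also at an unadjusted p under 0.05. The others were too low to test. Of these, Klrc2 had 9, 9 and 5 counts in liver and 0, 1 and 1 in spleen. Klrc1 had 0, 18 and 10 counts in liver against 0, 9 and 2 in spleen. The part of NK cells, ILC1 or CD8 T cells in the granzyme and perforin differences was not tested.

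**Figure D4:**
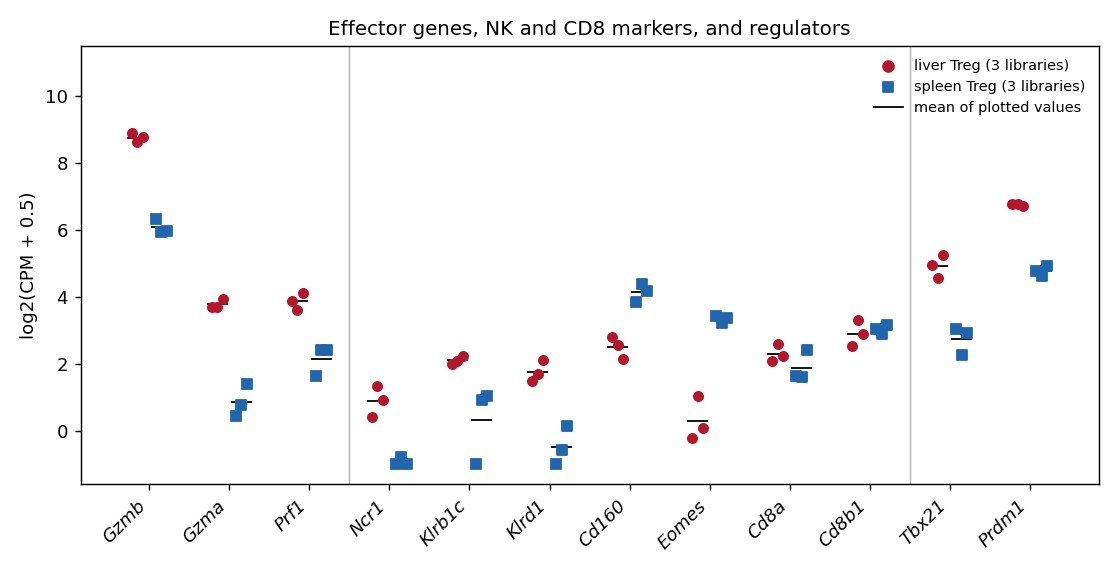
Level in each library as log2(CPM + 0.5) of Gzmb, Gzma and Prf1, of markers of NK cells, ILC1 and CD8 T cells, and of the regulators Tbx21 and Prdm1, separated by grey lines. Liver libraries (red circles) lie above spleen libraries (blue squares) for Ncr1, Klrb1c and Klrd1, below them for Cd160 and Eomes, and among them for Cd8a and Cd8b1.

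Markers of several other blood cells were lower in liver. Of tested markers, 8 of 8 erythroid, 9 of 13 granulocyte, 7 of 9 macrophage and 5 of 11 B cell genes were lower, and 0 of 2 mast cell and basophil and 0 of 4 dendritic cell genes passed. The granulocyte protease gene Elane was at 2.57 ± 0.890 CPM in liver and, in spleen, 13.3 ± 4.86 CPM (SD, n = 3 each). Granulocytes and macrophages express Ctsc and Cst7, and their part in the levels of these genes was not tested. The mast cell gene Cpa3 had at most 11 counts and the basophil gene Mcpt8 at most 22 in any library.

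The genes whose pattern over the 6 libraries was most like that of the leading genes were found among 8713 genes with at least 10 CPM in liver, by the root mean square difference of centred log2(CPM + 0.5) values. For Gzmb they were the chemokine gene Ccl5 (0.15), Il10 (0.28), the chemokine receptor genes Cxcr6 (0.29) and Ccr3 (0.30), and Frmd5 (0.31). For Gzma they were Il10 (0.30), Hip1 (0.38), Ccl5 (0.43), Fam64a (0.44) and Rfx2 (0.46). For Prf1 they were Cd320 (0.07), Depdc1a (0.10), Kif23 (0.13), Traip (0.14) and Cep112 (0.14). Ccl5, the nearest to Gzmb, averaged 93.4 CPM in liver against 13.7 CPM in spleen. The measure is dominated by the difference between tissues and is given as a description.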

How the data were processed

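RNA sequencing of 3 liver and 3 spleen Treg libraries was used, numbered in accession order. The authors deposited raw read counts per gene symbol, without normalization. HISAT2 2.1, HTSeq 0.11 and mm9 are named in the submitters' processing notes. Gene annotation and strand setting: not given in the sources used here. HTSeq summary rows, 25.5% to 29.0% of each library's counts in the table, were left out.

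The test was edgeR 4.0.16 in R 4.3.3. The function filterByExpr kept 11716 of 23366 genes, TMM scaled the libraries, and the quasi-likelihood F test compared liver with spleen with Benjamini-Hochberg adjustment over all genes tested. CPM use TMM-scaled totals, and SE and 95% intervals follow from the F statistic. Levels per kb use GENCODE M21 exons on GRCm38. Taking 3 counts as the floor gives 2.58 CPM for spleen 1 and 0.256 to 0.361 CPM elsewhere.

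The members and lists were chosen with earlier results of these data known. Named genes were all members, up to 3 genes per direction of each pathway list with the smallest p, the defining and most abundant markers, and the nearest patterns; other genes named were picked with their values in view, and not every gene the rule picks is discussed. Zfp683, Ly6g and Ahsp were not matched to the table. Alternatives used DESeq2 1.42.0 and limma 3.58.1, other scalings, filters and thresholds, equal depth, a term for sex-linked transcripts, and each library left out.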

Additional observations from a re-analysis of the deposited data

How the results depend on the processing

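Gzmb was called under each of 16 alternatives (log2 fold change 2.62 to 2.81) and Gzma under each of the 15 that tested it (2.77 to 3.51). Prf1 was called under 15 of 16, the exception being equal depth (1.23), and Srgn under 14 of 16, the exceptions being a minimum absolute log2 fold change of 1 (0.52) and the fit without spleen 2. None of the 10 genes was called lower in liver under any alternative. At equal depth 2 of 7 tested genes were called, Gzmb and Srgn. Leaving out 1 library gave 3 to 4 called genes, with ranges of 0.42 to 0.68 for Srgn, -0.79 to 0.37 for Gzmm, -0.03 to 0.32 for Serpinb9 and -0.34 to 0.12 for Serpinb6b. Over all tested genes, leaving out 1 library gave 722 to 1245 higher and 486 to 989 lower in liver, against 1087 and 808. The minimum fold change gave 428 and 267, equal depth 636 and 453, and limma-voom 1521 and 1243. Upper-quartile scaling turned the balance to 954 higher and 1014 lower (48.5% of calls higher, against 57.4%). For other pathway genes, leaving out 1 library gave 12 to 24 higher, the minimum fold change gave 8 higher and 2 lower, and equal depth 12 higher. Among marker genes that did not pass, the sign of Cd4 turned with upper-quartile scaling (-0.01) or 1 library left out (range -0.04 to 0.11), that of Cd8b1 at equal depth (0.24) or 1 library left out (-0.32 to 0.09), and that of the dendritic marker Flt3 without spleen 3 (range -1.57 to 0.37). Fewer counts enter the fit at equal depth; the cause of the other changes was not tested.

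The labels give no numbers or animals that pair libraries, so none were paired by label. A fit blocked on the classes of sex-linked transcripts, each with 1 library of each tissue, had 4 called genes (log2 fold change of Gzmb 2.71, log2 fold change of Gzma 3.10, log2 fold change of Prf1 1.66 and log2 fold change of Srgn 0.53). The depth of spleen 1 limits what can be read from Gzma, Prf1, Gzmm and Gzmk there.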

Other observations

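The classes of sex-linked transcripts were shared across tissues at similar levels. Xist reached 1148 CPM in liver 1 against 1299 CPM in spleen 1, with 0 counts of Ddx3y in both. Ddx3y reached 117 CPM in liver 2 against 116 CPM in spleen 2, with Xist under 1 CPM. Liver 3 and spleen 3 held both, with Xist at 462 and 327 CPM and Ddx3y at 53.3 and 76.8 CPM. The labels do not say whether a liver and a spleen library came from the same animals.

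Transcripts of hepatocyte proteins were present in the liver libraries at low levels. Alb, which encodes albumin, had 50, 24 and 79 counts in liver and 0 counts in each spleen library, and Ahsg, which encodes fetuin-A, had 31, 13 and 48 counts and 0. Of 9 hepatocyte markers, 4 could be tested, of which 2 were higher in liver and 1, Trf, was lower.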
